A study of Mus musculus with 32 samples.

Results

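The genes described here encode the proteasome of mouse striatum. They are the protein-coding genes whose symbol starts with Psm, a letter from a to g and a number, and 50 of the 55415 features in the count files met that rule. 4 pseudogenes with such symbols were left out. The rule used names and no measured value. Of the 50 genes, 45 had enough counts to be among the 10679 genes tested. Psma8, Psmb8, Psmb9, Psmb11 and Psmc3ip did not, and Psmc3ip, which acts in meiotic recombination, matches by symbol alone.

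The libraries came from striatum of YAC128 mice, which carry a human HTT transgene on a yeast artificial chromosome and have a B6 background, and of their wild-type (WT) littermates. The transgene is expressed beside the mouse's own Htt genes. YAC128 mice were given AON12.1, a scrambled oligonucleotide (both 500 µg) or artificial cerebrospinal fluid (aCSF), and WT mice were given aCSF, so no WT animal received an oligonucleotide. All 4 groups had 3 injections of 10 µL into the lateral ventricle, starting at about 6 months of age with the others 2 and 4 weeks later, and tissue was taken at 12 months. Each group held 8 libraries from separately numbered animals, 32 in all, so the spread between libraries includes that between animals. The libraries sample the 3' ends of polyadenylated transcripts from whole tissue, and in such bulk RNA fewer cells of a type and less RNA per cell cannot be told apart.

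The proteasome degrades proteins that carry ubiquitin chains. Its barrel, the 20S core, is built of outer alpha rings that gate the entrance and inner beta rings that hold the protease sites. The 19S particle caps the core: its base contains the ATPases that unfold a substrate, and its lid contains the enzyme that removes ubiquitin. Activators can bind the core in place of the 19S particle, and dedicated chaperones assemble core and base and then leave. Mutant huntingtin is degraded in part by this system, and its genes are often examined in Huntington disease models.

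The libraries held 658934 to 1419313 counts on genes. The share of counted reads that fell on no annotated gene, called the no-feature share below, averaged 19.5% ± 4.40 (SD, n = 8) in WT and 25.7% ± 4.92 (SD, n = 8) in YAC128 aCSF libraries, with scrambled and AON12.1 libraries between them at 22.1% and 23.8%. WT replicate 1 stood apart from the other WT libraries with a share of 30.2%. The numbers of the animals fall into 2 series, 18 and 19, which the groups hold in unequal parts: 3 and 5 animals in WT, 4 and 4 in YAC128 aCSF, and 2 and 6 in each oligonucleotide group. Defining genes of striatal projection neurons, astrocytes and oligodendrocytes were detected in every group.

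Summed over all genes of a particle, proteasome transcripts had lower medians in each YAC128 group than in WT, with overlapping libraries. Levels are in CPM, counts scaled to a common library size with the trimmed mean of M-values (TMM). The 17 genes of the 19S particle summed from 2076 to 2406 CPM around a median of 2283 in the WT libraries, from 1819.8 to 2102 around 2043 in the YAC128 aCSF libraries, from 1860.0 to 2260.2 around 2029 in the scrambled libraries and from 1918 to 2257 around 2027 in the AON12.1 libraries. 6 of 8 WT libraries lay above the highest YAC128 aCSF library, 5 of 8 above the highest scrambled library and 5 of 8 above the highest AON12.1 library. The group means were 9.89%, 8.14% and 9.14% below the WT mean in YAC128 aCSF, scrambled and AON12.1 libraries, in that order. All 3 comparisons use the same WT libraries and are not independent.

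The 19 genes of the 20S core summed from 1781 to 2015 CPM around a median of 1938 in the WT libraries, from 1592 to 1964 around 1779.7 in the YAC128 aCSF libraries, from 1618 to 1995 around 1771 in the scrambled libraries and from 1614 to 1938 around 1823 in the AON12.1 libraries. These group means were 8.27%, 7.63% and 7.33% below the WT mean, and 2 of 8 WT libraries lay above the highest YAC128 aCSF library. The ratio of the 20S sum to the 19S sum had medians of 0.849 in WT, 0.863 in YAC128 aCSF, 0.871 in scrambled and 0.871 in AON12.1 libraries, and the groups overlapped in it. These sums are given as a description, with no test.

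**Figure D1:**
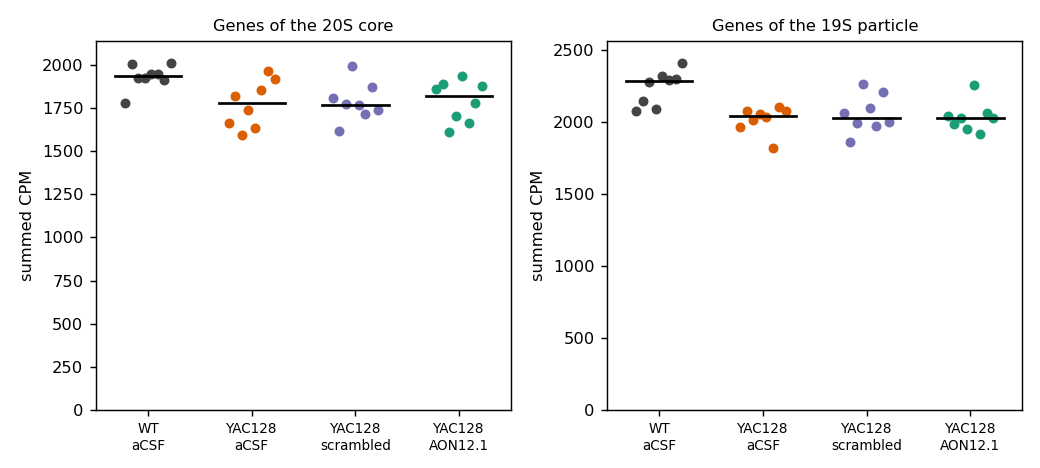
Summed level of the 20S core genes (left) and the 19S particle genes (right) in each library, in CPM, by group; each point is 1 library and the black line is the group's median. The WT median of the 19S sum, 2283 CPM, lies above those of the YAC128 groups, 2027 to 2043 CPM, and the ranges overlap.

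Gene by gene, no proteasome gene passed the test between YAC128 and WT mice that both received aCSF. This comparison concerns the transgene without an oligonucleotide. 0 of the 45 tested genes had an adjusted p under 0.05 (edgeR's quasi-likelihood test, Benjamini-Hochberg over 10679 genes), where 0.0749% of all tested genes did, and DESeq2 and limma voom also called 0. Over all genes the 8 calls became 142 of 10773, or 1.32%, without WT replicate 1, 27 without YAC128 aCSF replicate 8 and 30 with DESeq2, and 0 members were called in each of these fits. At an unadjusted p under 0.05 there were 9, all lower in YAC128, or 20% of the genes against a background of 12.5%. Over the 16 fits that each left out 1 library, that count ran from 4 to 11. It was 4 of 46 without YAC128 aCSF replicate 2, against 11.4% of all genes in the same fit. Without YAC128 aCSF replicate 1 or replicate 6 it was 5. It was 11 without WT replicate 1, 10 of them lower, and it was 10 with DESeq2 and 8 with limma voom. Among these alternatives, only the count of 4 is given beside its all-gene share. The log2 difference was below 0 for 34 of the 45 genes, and its median was -0.10. Over all tested genes 50.7% were below 0 and the median was -0.004.

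Most of the lower estimates were in the beta rings and the 19S particle. In the alpha rings, 4 of 7 tested genes were lower, with a median log2 difference of -0.02. Psma4, an alpha-ring subunit, had the smallest p of all members in this comparison. Its level ran from 97.6 to 147 CPM around a median of 135 in the WT libraries and from 79.0 to 142 around 100.0 in the YAC128 aCSF libraries. 4 of 8 YAC128 aCSF libraries lay below the lowest WT library, 1 lay near the WT top, and the groups overlapped. The log2 difference was -0.31 ± 0.12, a ratio of 0.805 (95% interval 0.680 to 0.953), with an adjusted p of 0.278 by edgeR's quasi-likelihood test.

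All 7 beta-ring genes were lower in YAC128 aCSF than in WT libraries, with a median log2 difference of -0.21, and 4 of them had an unadjusted p under 0.05. Psmb1, a beta subunit without a protease site, had a log2 difference of -0.22 ± 0.09. It ran from 297 to 360.5 CPM around a median of 353 in the WT libraries and from 228 to 341 around 296 in the YAC128 aCSF libraries, and all 8 YAC128 aCSF libraries lay below the WT median. Psmb4, also without a protease site, had a log2 difference of -0.21 ± 0.09, and again 8 of 8 YAC128 aCSF libraries lay below the WT median. Psmb1 and Psmb4 were picked after their values were seen. Below the WT median lay 7 of 8 YAC128 aCSF libraries for Psmb2, 6 for Psmb5 and Psmb6, and 4 for Psmb3 and Psmb7. None of these differences passed the adjusted threshold, and in every beta-ring gene the 2 groups overlapped.

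In the 19S base, 7 of 8 genes were lower, with a median log2 difference of -0.21. Psmc4, one of the base ATPases, ran from 111 to 137 CPM around a median of 124 in the WT libraries and from 79.6 to 126 around 101 in the YAC128 aCSF libraries. 6 of 8 YAC128 aCSF libraries lay below the lowest WT library, though the highest lay above the WT median. The log2 difference was -0.28 ± 0.11, with an adjusted p of 0.279 by edgeR's quasi-likelihood test. Psmc3, another base ATPase, ran from 169.5 to 221 CPM around a median of 199 in the WT libraries and from 151 to 183 around 165 in the YAC128 aCSF libraries. All 8 YAC128 aCSF libraries were below the WT median, and the log2 difference was -0.25 ± 0.10. Psmc6, an ATPase of the same ring, was the 1 base gene with a higher estimate, 0.18 ± 0.11 on the log2 scale. The 8 lid genes were all lower, by a median of -0.10 on the log2 scale, and 0 of them had an unadjusted p under 0.05. Psmd4, a ubiquitin receptor of the 19S particle, had a log2 difference of -0.15 ± 0.08.

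Estimates for activators and assembly chaperones were divided between higher and lower. Of the 6 genes for activators and the inhibitor, 3 were lower, with a median log2 difference of -0.03. Of the 7 assembly chaperones, 3 were lower, with a median of 0.07. Whether this split differs from the 20S and 19S genes was not tested, since a test over chosen members is not given here.

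**Figure D2:**
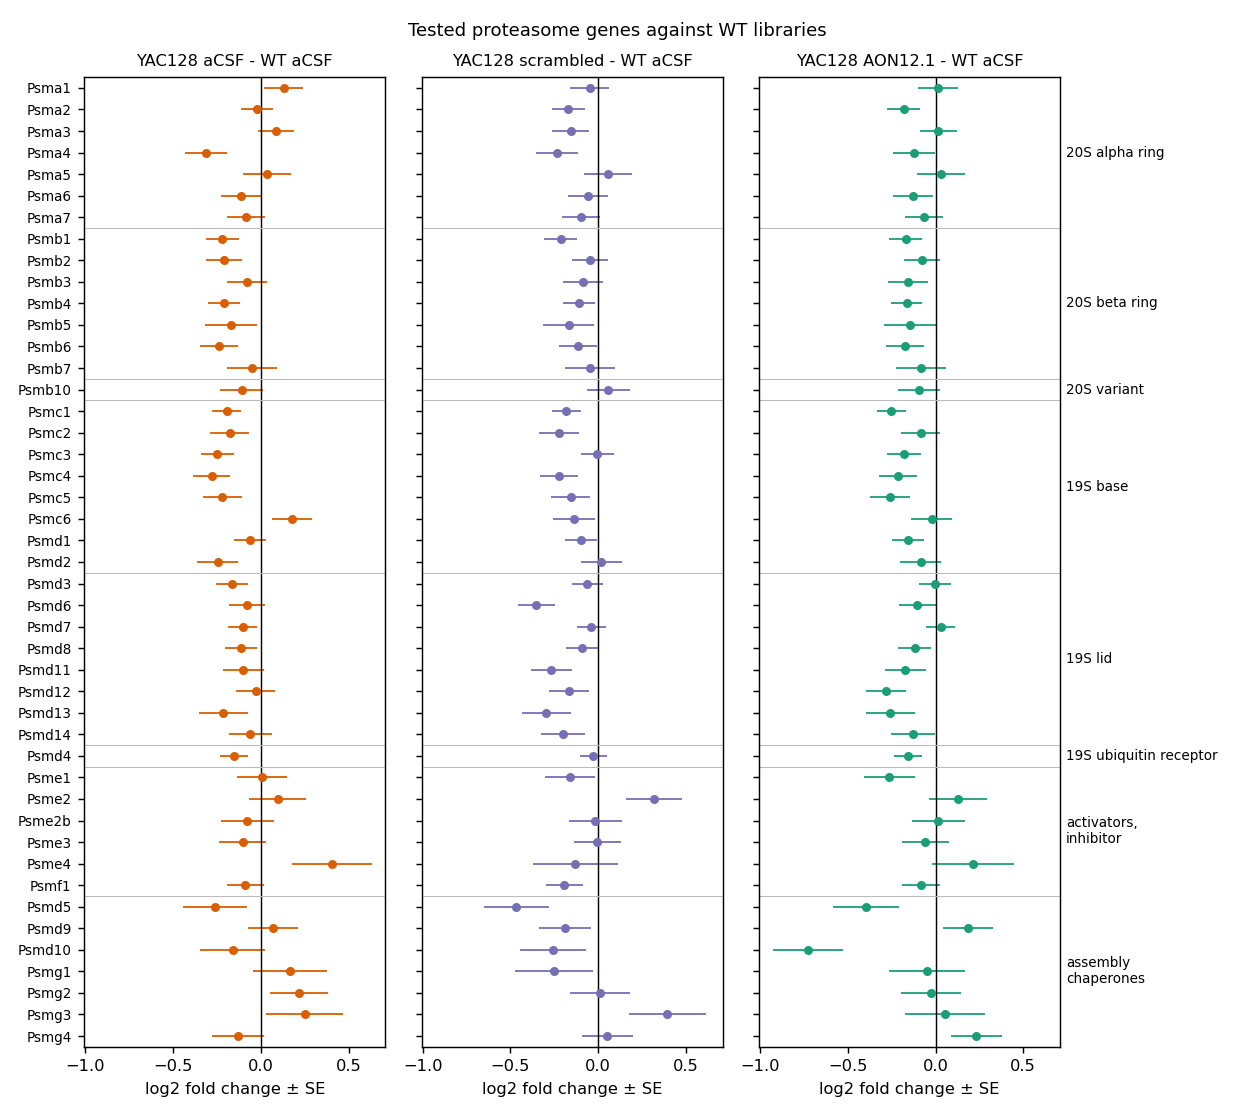
Log2 fold change against WT aCSF libraries for each of the 45 tested proteasome genes, from edgeR, in YAC128 aCSF (left), scrambled (middle) and AON12.1 (right) libraries; points are estimates and bars are ± 1 standard error. Most 20S beta-ring and 19S points lie left of 0 in each panel, no gene passed the adjusted threshold, and the panels share the WT libraries.

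The no-feature share, which was higher in YAC128 aCSF libraries, moved with these estimates. With the share as a covariate, 27 of 45 genes were lower between YAC128 aCSF and WT, the median log2 difference was -0.035 and 1 gene had an unadjusted p under 0.05. The percent of all genes under that threshold in the covariate fit is not given, so the lower count is not read as particular to members. In that fit 14 of 17 19S genes were lower, with a median of -0.09, while the 20S core had 8 of 15 lower with a median of -0.01. Within series 18 animals alone 12 of 17 19S genes were lower, with a median of -0.03, and within series 19 animals alone 16 of 17, with a median of -0.16. Without WT replicate 1, 16 of 17 19S genes were lower, with a median of -0.15, and of all members 35 of 46 were. The summed level of 12 projection neuron markers ran from 5121 to 11072 CPM around a median of 8167 in the WT libraries and from 3471 to 6949.9 around 5984 in the YAC128 aCSF libraries, with 11 of 12 markers lower, 2 called, and 0 undetected in either group. The 6 astrocyte markers summed from 2719 to 3356 CPM around a median of 3005 in the WT libraries and from 2249 to 2688 around 2413 in the YAC128 aCSF libraries, with 5 of 6 lower and 0 called. The 6 oligodendrocyte markers had summed medians of 6529 CPM in WT and 5716 in YAC128 aCSF libraries, with 4 of 6 lower and 0 called. Choroid plexus markers summed to 3334 CPM in 1 YAC128 aCSF library, where the highest WT library had 76.2. The part of the no-feature share or of cell composition in the proteasome estimates was not tested.

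The same genes were compared between the scrambled oligonucleotide or AON12.1 and WT. These comparisons mix genotype and treatment. For the scrambled group, 38 of 45 genes were lower than in WT, with a median log2 difference of -0.11. 0 were called, where 0.169% of all genes were, and 7 had an unadjusted p under 0.05, against 9.8% of all genes. That count ran from 3 to 8 over the 16 fits that each left out a library, with the 3 found without scrambled replicate 2. The all-gene share in these fits is not given. Of the 17 19S genes, 16 were lower, and in a fit that included the no-feature share 15 were, with a median of -0.15. Psmd6, a lid subunit, had the smallest p. It ran from 72.4 to 104 CPM around a median of 85.1 in the WT libraries, from 67.5 to 98.6 around 76.1 in the YAC128 aCSF libraries, from 51.5 to 76.8 around 65.3 in the scrambled libraries and from 68.0 to 97.9 around 75.5 in the AON12.1 libraries. All 8 scrambled libraries lay below the WT median and 5 below the lowest WT library. The log2 difference from WT was -0.35 ± 0.11, with an adjusted p of 0.192 by edgeR's quasi-likelihood test. Psmd5, a chaperone of the base, followed at -0.47 ± 0.19 and the lid gene Psmd11 at -0.27 ± 0.12.

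For AON12.1 against WT, 35 of 45 genes were lower, with a median log2 difference of -0.11. 0 were called, where 0.562% of all genes were, and 5 had an unadjusted p under 0.05, all lower, against 14.5% of all genes. That count was 13 of 46 without AON12.1 replicate 5, beside 1728 of 10767 genes in the same fit. It was 8 without WT replicate 1 or AON12.1 replicate 7, and 3 without AON12.1 replicate 8, with the all-gene share in these fits not given. In a fit that included the no-feature share, 30 of 45 members were lower and the median was -0.05. The 19S particle had 16 of 17 lower estimates with a median of -0.16, and 14 of 17 with a median of -0.13 when the share was a covariate. Beside these estimates, 9 of 12 projection neuron markers were higher in AON12.1 than in WT, by a median of 0.15 on the log2 scale and with 0 called, and 5 of 6 oligodendrocyte markers were lower, 1 of them called. Psmc1, a base ATPase, ran from 106 to 149 CPM around a median of 125 in the WT libraries, from 96.0 to 129 around 109.8 in the YAC128 aCSF libraries, from 104 to 119.7 around 109 in the scrambled libraries and from 94.8 to 118 around 105 in the AON12.1 libraries. All 8 AON12.1 libraries were below the WT median and 5 WT libraries lay above the highest AON12.1 library. The log2 difference was -0.25 ± 0.08, with an adjusted p of 0.153 by edgeR's quasi-likelihood test.

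Psmd10 encodes gankyrin, a chaperone that binds a base ATPase during assembly and is also known as an oncoprotein. It lies on chromosome X and was counted 502 times over the 32 libraries. Its level ran from 14.0 to 26.8 CPM around a median of 20.3 in the WT libraries, from 10.6 to 25.6 around 17.9 in the YAC128 aCSF libraries, from 7.66 to 21.2 around 17.5 in the scrambled libraries and from 8.61 to 17.8 around 10.2 in the AON12.1 libraries. 6 of 8 AON12.1 libraries lay below the lowest WT library and the other 2 did not, so the groups overlapped. Against WT the log2 difference was -0.73 ± 0.20, a ratio of 0.604 (95% interval 0.455 to 0.803), and the adjusted p by edgeR's quasi-likelihood test was 0.0747. Against aCSF-treated YAC128 mice it was -0.57 ± 0.20 with an adjusted p of 0.22, and against the scrambled group -0.47 ± 0.20 with an adjusted p of 0.611. The difference from the scrambled group turned to 0.27 within series 18 animals alone, which hold 2 libraries of each. Between the scrambled group and YAC128 aCSF the log2 difference was -0.10 ± 0.19. Leaving out AON12.1 replicate 1 or replicate 7, the 2 AON12.1 libraries highest in Psmd10, gave adjusted p of 0.0458 and 0.0446 against WT by the same test. Dropping the highest libraries of the lower group widens the difference. In the other 14 of the 16 fits that each left out 1 library, Psmd10 was not called. Over 25 alternatives (edgeR, DESeq2 or limma voom) its adjusted p against WT ran from 0.0446 to 0.592. The share of all genes called in these fits is not given. These comparisons share libraries, and Psmd10 was singled out by its p among 45 genes.

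**Figure D3:**
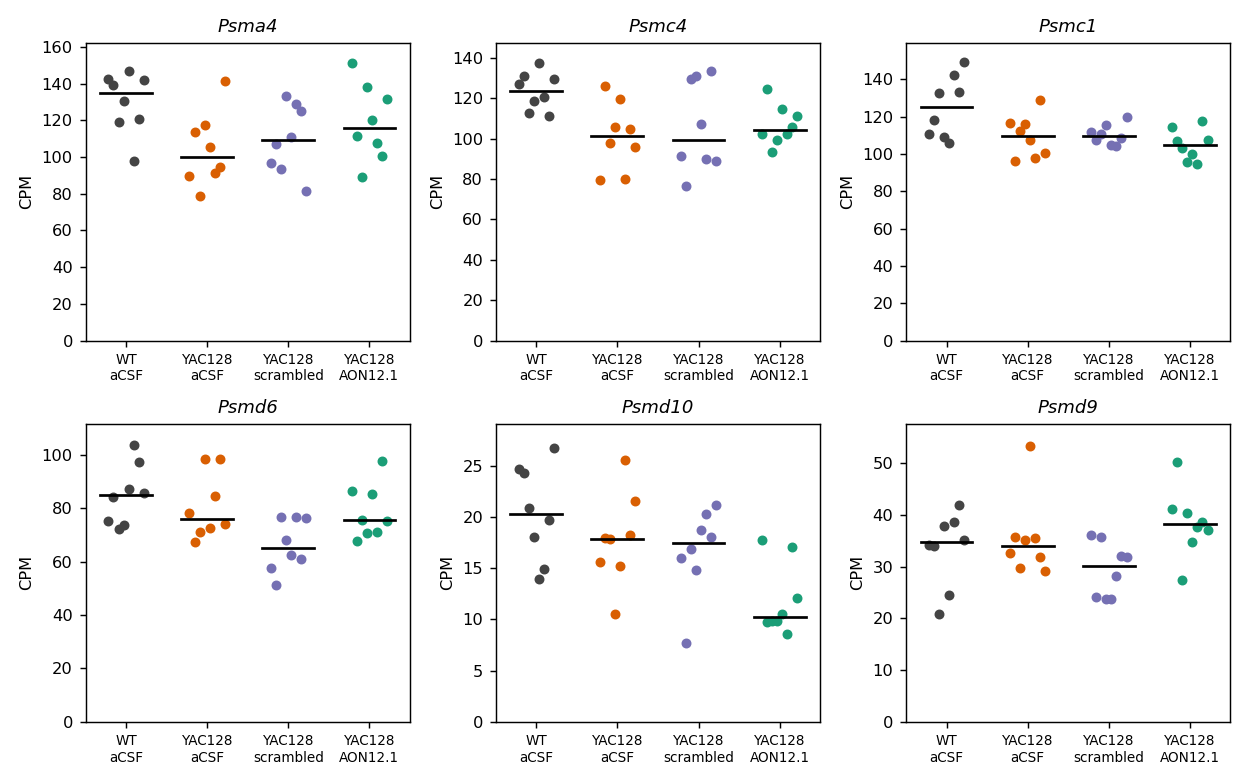
Level of 6 proteasome genes in each library, in CPM, by group, with the group's median as a black line. In the Psmd10 panel 6 of 8 AON12.1 libraries lie below all WT libraries, and in every panel the groups overlap.

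Comparisons within YAC128 mice concern the oligonucleotides. Between AON12.1 and the scrambled oligonucleotide, 23 genes were lower and 22 higher, with a median log2 difference of -0.01. 0 were called, where 0.14% of all genes were, and 3 had an unadjusted p under 0.05, against 7.25% of all genes. Over the 16 fits that each left out 1 library, the 3 became 2 to 5, with the all-gene share in them not given. The 5 came without scrambled replicate 3. Psmd9, another chaperone of the base, had the smallest p. It ran from 23.7 to 36.2 CPM around a median of 30.0 in the scrambled libraries and from 27.4 to 50.2 around 38.1 in the AON12.1 libraries, and 7 of 8 AON12.1 libraries lay above the scrambled median. The log2 difference was 0.37 ± 0.14, with an adjusted p of 0.525 by edgeR's quasi-likelihood test. For Psmd6 all 8 AON12.1 libraries were above the scrambled median, with a log2 difference of 0.25 ± 0.11.

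Between AON12.1 and aCSF, 25 genes were lower and 20 higher. 0 were called, where 0.309% of all genes were, and 3 had an unadjusted p under 0.05, against 11.6% of all genes. Without YAC128 aCSF replicate 8 there were 6, and without YAC128 aCSF replicate 5 or AON12.1 replicate 7 there were 5. The lowest count over the 16 fits that each left out 1 library was 2, and the all-gene share in these fits is not given. The 3 over all libraries were Psmd10, Psmg4, a chaperone of the core with a log2 difference of 0.36 ± 0.15, and the lid gene Psmd12 at -0.25 ± 0.11. Psmg4 ran from 38.2 to 53.4 CPM around a median of 41.8 in the YAC128 aCSF libraries and from 38.6 to 72.3 around 53.9 in the AON12.1 libraries, with 7 of 8 AON12.1 libraries above the aCSF median. Psmd12 ran from 46.9 to 80.2 CPM around a median of 69.1 in the YAC128 aCSF libraries and from 37.2 to 72.7 around 56.5 in the AON12.1 libraries, with 7 of 8 AON12.1 libraries below the aCSF median. In both genes the groups overlapped. Within series 18 animals alone, 4 aCSF against 2 AON12.1 libraries, Psme1 was called lower with AON12.1 (-1.08 on the log2 scale, adjusted p = 0.0250 by edgeR's quasi-likelihood test), and over all animals it was -0.27 ± 0.14 with an adjusted p of 0.460. In that series 2.52% of all genes were called, so 1 of 46 members is near the background.

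Between the scrambled oligonucleotide and aCSF, 21 genes were lower and 24 higher. 0 were called, where 0.0843% of all genes were, and 6 had an unadjusted p under 0.05, against 9.83% of all genes. The base ATPase Psmc6 had a log2 difference of -0.31 ± 0.11. It ran from 48.9 to 69.5 CPM around a median of 58.7 in the YAC128 aCSF libraries and from 36.2 to 55.1 around 49.7 in the scrambled libraries, and all 8 scrambled libraries were below the aCSF median. Psmc3 went the other way at 0.24 ± 0.09. A joint edgeR test for any difference among the 4 groups called 0 of 45 members, where 0.777% of all genes were called. 4 members, Psmd10, Psmd6, Psmc1 and Psmc3, had an unadjusted p under 0.05, against 14.9% of all genes. The median standard error of a member's log2 difference between YAC128 aCSF and WT was 0.113, and it was 0.159 over all tested genes.

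The protease sites of the core are on Psmb5, Psmb6 and Psmb7, with chymotrypsin-like, caspase-like and trypsin-like activity. Psmb8, Psmb9 and Psmb10 replace them, in that order, in the immunoproteasome that interferon induces. Psmb5 ran from 23.5 to 47.9 CPM around a median of 33.0 in the WT libraries, from 28.9 to 38.1 around 30.8 in the YAC128 aCSF libraries, from 24.6 to 38.9 around 32.1 in the scrambled libraries and from 20.7 to 42.1 around 34.8 in the AON12.1 libraries. Its replacement Psmb8 had 269 counts in all and ran from 3.53 to 15.3 CPM around a median of 9.47 in the WT libraries, from 2.82 to 17.0 around 9.13 in the YAC128 aCSF libraries, from 4.26 to 11.6 around 8.11 in the scrambled libraries and from 3.33 to 15.4 around 9.36 in the AON12.1 libraries. The Psmb8 medians differed by less than the spread within any group.

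Psmb6 ran from 131 to 204 CPM around a median of 161 in the WT libraries, from 112 to 183 around 133 in the YAC128 aCSF libraries, from 127 to 175 around 153 in the scrambled libraries and from 108 to 173 around 154 in the AON12.1 libraries. Its replacement Psmb9 had 99 counts in all and medians of 2.46 CPM in WT, 2.94 in YAC128 aCSF, 2.18 in scrambled and 4.85 in AON12.1 libraries. Psmb7 ran from 153 to 261 CPM around a median of 185 in the WT libraries, from 144 to 238 around 183 in the YAC128 aCSF libraries, from 117 to 247 around 197 in the scrambled libraries and from 129.5 to 276 around 169 in the AON12.1 libraries. Its replacement Psmb10 was the 1 inducible subunit with enough counts to test, and ran from 50.4 to 71.6 CPM around a median of 53.2 in the WT libraries, from 38.2 to 66.6 around 51.7 in the YAC128 aCSF libraries, from 46.0 to 64.6 around 60.5 in the scrambled libraries and from 35.6 to 63.8 around 54.1 in the AON12.1 libraries. Psmb10 was not called in any comparison, and its log2 difference was -0.11 ± 0.12 between YAC128 aCSF and WT and -0.10 ± 0.12 between AON12.1 and WT. Beside this, 10 tested genes of interferon response and antigen presentation were higher than in WT in 10 of 10 cases in YAC128 aCSF, 8 of 10 in scrambled and 10 of 10 in AON12.1 libraries. 0, 0 and 3 of them were called, where 0.0749%, 0.169% and 0.562% of all genes were. The testis subunit Psma8 had 6 counts in 5 libraries and the thymus subunit Psmb11 had 2 counts in 2 libraries, so no level or difference could be read for either.

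Psme1 and Psme2 encode the subunits of the interferon-inducible activator, Psme3 the related nuclear activator and Psme4 a large single-chain activator. Psme1 ran from 66.6 to 95.9 CPM around a median of 85.9 in the WT libraries, from 56.3 to 120.4 around 80.6 in the YAC128 aCSF libraries, from 65.7 to 96.8 around 71.2 in the scrambled libraries and from 42.2 to 92.6 around 75.9 in the AON12.1 libraries. Psme3 ran from 72.9 to 119 CPM around a median of 99.5 in the WT libraries, from 75.3 to 119.5 around 84.5 in the YAC128 aCSF libraries, from 66.3 to 125 around 98.6 in the scrambled libraries and from 54.2 to 113 around 106 in the AON12.1 libraries. Both overlapped across all groups. Psme4 was sparse, with 449 counts, and ran from 9.32 to 22.4 CPM around a median of 11.5 in the WT libraries, from 12.2 to 27.0 around 17.7 in the YAC128 aCSF libraries, from 4.17 to 21.0 around 12.0 in the scrambled libraries and from 7.03 to 21.5 around 15.1 in the AON12.1 libraries. Its log2 difference was 0.40 ± 0.23 between YAC128 aCSF and WT and -0.53 ± 0.23 between scrambled and aCSF, neither of them called. Psmf1, an inhibitor of the core, had medians of 58.8 CPM in WT, 52.4 in YAC128 aCSF, 52.6 in scrambled and 54.7 in AON12.1 libraries.

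Chaperones of the core, Psmg1 to Psmg4, pair the alpha subunits and help close the ring. Psmg1 had medians of 14.3 CPM in WT, 15.3 in YAC128 aCSF, 11.7 in scrambled and 14.3 in AON12.1 libraries. Psmg2, its partner, had medians of 20.5 CPM in WT, 24.3 in YAC128 aCSF, 22.0 in scrambled and 19.4 in AON12.1 libraries. Psmg3 had medians of 15.6 CPM in WT, 18.7 in YAC128 aCSF, 23.0 in scrambled and 16.6 in AON12.1 libraries, and its partner Psmg4 45.3 CPM in WT, 41.8 in YAC128 aCSF, 48.7 in scrambled and 53.9 in AON12.1 libraries. Partner genes did not keep 1 order of groups, and none was called. Psmd5, which holds base ATPases during assembly, ran from 16.5 to 43.1 CPM around a median of 35.6 in the WT libraries, from 22.8 to 45.6 around 25.9 in the YAC128 aCSF libraries, from 13.7 to 31.8 around 25.4 in the scrambled libraries and from 16.8 to 38.9 around 23.4 in the AON12.1 libraries. All 8 scrambled libraries were below its WT median, while WT replicate 1 was itself the lowest WT library.

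Several members have near-identical copies at the 3' end, where these libraries read. 16 members shared at least 100 bases at 95% identity or more within their last 300 bases with another annotated gene. For 8 of them a matched gene held over 10% of the member's count, but not all of these matches are copies. Psma3 and Psmb5 matched processed pseudogenes, and Psme2 and Psme2b matched each other. Psmb7, Psmc3 and Psmc3ip matched Nek6, Slc39a13 and Mlx without a mismatch. Psmb11, with 2 counts, matched many genes of other names, among them Reps1, Med16 and Tbk1. The processed pseudogene Gm3375 matches Psmb5 at 99.6% over 229 bases and was credited with 2793 counts, where Psmb5 had 985. Gm3375 ran from 81.5 to 119.9 CPM around a median of 102 in the WT libraries, from 70.1 to 106 around 85.2 in the YAC128 aCSF libraries, from 61.3 to 138 around 94.5 in the scrambled libraries and from 80.8 to 107 around 90.5 in the AON12.1 libraries. Its log2 difference between YAC128 aCSF and WT was -0.20 ± 0.12, beside -0.17 ± 0.15 for Psmb5. How the counts of the pair divide is therefore uncertain. With the copies' counts added, the difference for Psmb5 was -0.19 ± 0.11 with an adjusted p of 0.475 by edgeR's quasi-likelihood test.

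Psme2 and Psme2b, a protein-coding copy, are identical in 99.0% of the last 300 bases and had 785 and 777 counts. Psme2 ran from 18.6 to 36.0 CPM around a median of 19.9 in the WT libraries, from 18.5 to 34.0 around 23.4 in the YAC128 aCSF libraries, from 19.995 to 40.3 around 29.6 in the scrambled libraries and from 17.8 to 30.5 around 26.2 in the AON12.1 libraries. Psme2b ran from 19.7 to 31.0 CPM around a median of 27.7 in the WT libraries, from 17.9 to 41.3 around 23.8 in the YAC128 aCSF libraries, from 19.992 to 31.7 around 25.6 in the scrambled libraries and from 19.7 to 32.3 around 26.3 in the AON12.1 libraries. Their medians did not follow the same order of groups. The pseudogene Gm13835 matches 190 bases of the alpha-ring gene Psma3 exactly and had 698 counts, where Psma3 had 3052. Psmb7 and Psmc3 overlap other genes, Nek6 and Slc39a13, at their 3' ends, and the sources used here do not say whether strand was used in counting.

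**Figure D4:**
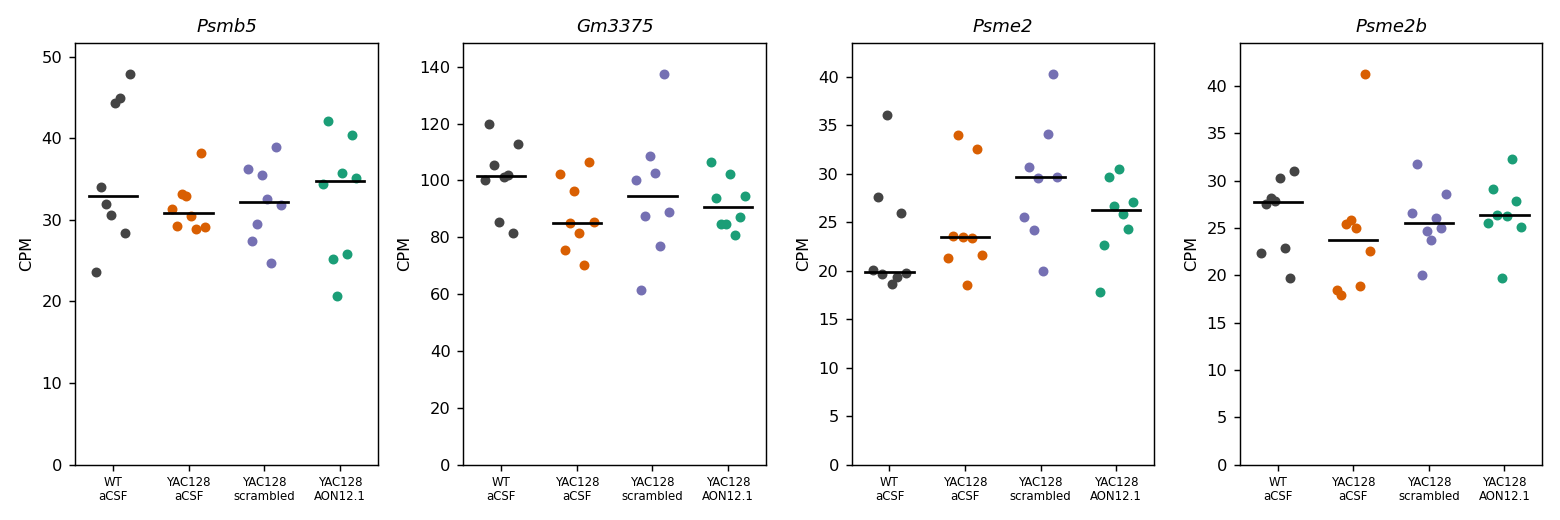
Level of Psmb5, its processed pseudogene Gm3375, Psme2 and its protein-coding copy Psme2b in each library, in CPM, by group, with the group's median as a black line. Gm3375 is credited with higher levels than Psmb5 in every group, with medians from 85.2 to 102 CPM beside 30.8 to 34.8 CPM.

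Within groups, most proteasome genes had lower estimates in libraries with more reads outside genes. A slope on the no-feature share was fitted for every gene with a separate mean for each group. It was negative for 33 of 45 members, with a median of -0.09 on the log2 scale per 10 percentage points, beside -0.02 for all genes. 5 members were called, all with lower levels at a higher share, or 11.1% of the members against 14.6% of all genes, and 14 had an unadjusted p under 0.05, against 27.2% of all genes. Read against that background, which counts both directions, the share of members called is not above that of all genes. Of the 1555 genes called, 1013 were higher at a higher share, the direction opposite to the 5 members. A background of genes called lower is not given here. Whether calls in that direction are particular to proteasome genes was not tested.

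The called members were Psme3 at -0.35 ± 0.09 (adjusted p = 0.00661 by edgeR's quasi-likelihood test), Psmb5 at -0.36 ± 0.10, the base scaffold subunit Psmd2 at -0.26 ± 0.08, Psmd5 at -0.39 ± 0.14 and the lid subunit Psmd8 at -0.19 ± 0.07. Psmd2 ran from 89.5 to 158 CPM around a median of 103 in the WT libraries, from 79.8 to 114 around 95.3 in the YAC128 aCSF libraries, from 103 to 151 around 116 in the scrambled libraries and from 72.0 to 139 around 115 in the AON12.1 libraries. Psmd8 ran from 121 to 168 CPM around a median of 145 in the WT libraries, from 118 to 158 around 132 in the YAC128 aCSF libraries, from 116 to 158 around 136 in the scrambled libraries and from 111 to 175 around 128 in the AON12.1 libraries. Neither separated the groups. The beta rings had 7 of 7 negative slopes, with a median of -0.18, and the 19S base 7 of 8, with a median of -0.07. Without WT replicate 1, or without AON12.1 replicate 4, 1 member was called, and without YAC128 aCSF replicate 7, 2 were. Calls over all genes in these fits are not given here, so the change is not read as particular to members. With the counts of its copies added, Psmb5 had an adjusted p of 0.0597.

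**Figure D5:**
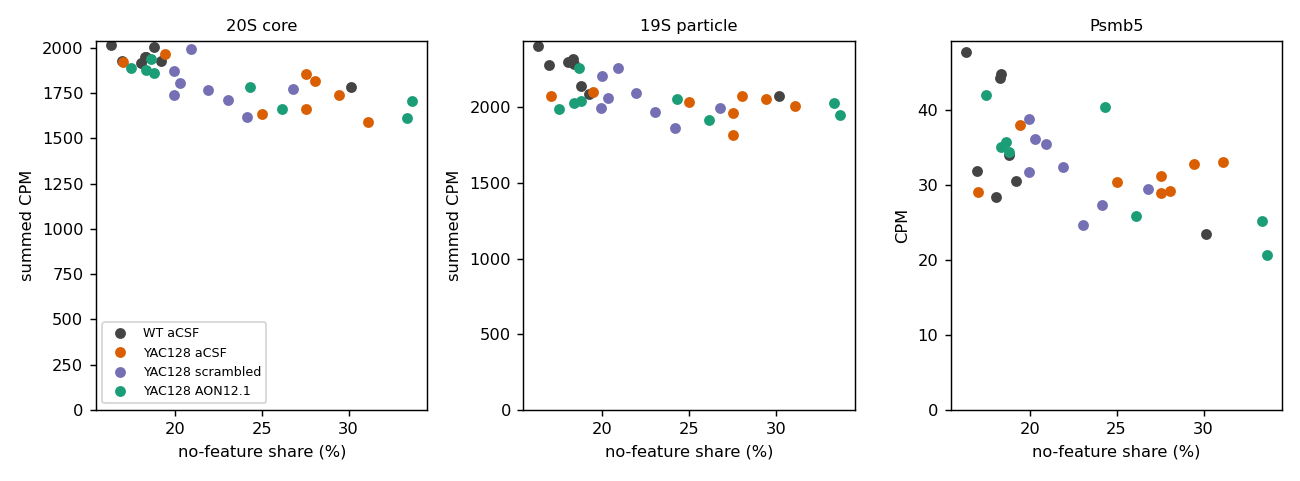
Summed level of the 20S core genes (left), summed level of the 19S particle genes (middle) and level of Psmb5 (right), in CPM, against the no-feature share in percent, with 1 point per library coloured by group. The highest 20S sum, 2015 CPM, is in a WT library, and WT replicate 1, at 30.2%, has the lowest 20S sum of the WT libraries.

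Promoter sequence was read for members from RefSeq's mouse table (build GRCm38.p6), 250 bases before to 50 after the annotated start. 42 of the 50 members had a promoter there that could be shown, with 45 windows in all. Both strands were searched for the antioxidant response element core TGACNNNGC, which the proteasome regulator encoded by Nfe2l1 binds, the CCAAT box, the ETS core CCGGAAG and the GC box GGGCGG. The ETS core was in 15 of 42 genes, 35.7%, beside 8.86% of all 32851 windows. Among tested genes with a window it was in 36.8% of 38 members and 20.4% of all 8144. The GC box was in 23 of 42, 54.8%, beside 35.7% of all windows, and among tested genes in 57.9% of members and 71.7% of all. The CCAAT box was in 35.7% of the members and 37.4% of all windows, and among tested genes in 31.6% of members and 42.7% of all. For the antioxidant response element core these shares were 14.3% and 12.4%, and 15.8% and 16.9% among tested genes. A member gene was counted if any of its windows matched, while the shares of all windows count each window, so those units differ. The shares among tested genes count genes on both sides. These shares are given with no test, and base composition was not matched. A match describes the letters of a window and not a bound site.

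3 promoters are shown: Psmd10 for the smallest adjusted p of any member in a group comparison, Psmc1 for the next smallest, and Psmb5 as the protease gene that was called on the no-feature share. Capitals mark matches to any of these motifs on either strand, so that CCAAT also appears as ATTGG and the ETS core as CTTCCGG, and each line reads 5' to 3' on the gene's own strand. The Psmd10 window (chrX:140956662-140956961, minus strand) has 3 CCAAT boxes and 2 GC boxes. The Psmc1 window (chr12:100109952-100110251, plus strand) has 1 CCAAT box and 1 ETS core, and the Psmb5 window (chr14:54617946-54618245, minus strand) has 1 antioxidant response element core.
Psmd10: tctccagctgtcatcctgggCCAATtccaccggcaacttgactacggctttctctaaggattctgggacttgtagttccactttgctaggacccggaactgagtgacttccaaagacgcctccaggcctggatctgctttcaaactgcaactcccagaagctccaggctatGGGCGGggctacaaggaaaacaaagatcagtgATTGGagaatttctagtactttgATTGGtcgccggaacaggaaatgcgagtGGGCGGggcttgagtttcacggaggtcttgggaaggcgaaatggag
Psmc1: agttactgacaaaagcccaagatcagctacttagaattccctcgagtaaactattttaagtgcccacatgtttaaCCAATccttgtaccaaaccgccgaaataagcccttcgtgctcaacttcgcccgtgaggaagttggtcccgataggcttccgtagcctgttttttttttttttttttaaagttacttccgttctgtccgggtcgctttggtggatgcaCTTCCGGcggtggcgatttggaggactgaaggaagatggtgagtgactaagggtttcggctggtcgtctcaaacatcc
Psmb5: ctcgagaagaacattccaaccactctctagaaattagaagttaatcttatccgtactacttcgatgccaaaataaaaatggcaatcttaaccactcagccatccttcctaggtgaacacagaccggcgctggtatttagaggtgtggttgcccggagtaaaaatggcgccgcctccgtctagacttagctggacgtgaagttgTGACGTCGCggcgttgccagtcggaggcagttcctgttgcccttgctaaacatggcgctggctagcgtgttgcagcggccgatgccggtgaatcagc

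Other genes of the ubiquitin-proteasome pathway were taken from a list of receptors, ubiquitin genes, shuttles and regulators. 32 of 33 were tested. In none of the 6 group comparisons was any called, where 0.0749% to 0.562% of all genes were. Between YAC128 aCSF and WT, 22 were lower and 10 higher. An unadjusted p under 0.05 was found for 5, 4 lower and 1 higher, or 15.6% of the list against 12.5% of all genes. The smallest adjusted p in any group comparison belonged to Uchl5, a deubiquitinase that docks on the 19S particle. Uchl5 ran from 24.3 to 40.8 CPM around a median of 36.1 in the WT libraries, from 27.2 to 38.9 around 30.8 in the YAC128 aCSF libraries, from 21.2 to 38.9 around 30.4 in the scrambled libraries and from 18.7 to 31.5 around 21.7 in the AON12.1 libraries. Its log2 difference between AON12.1 and WT was -0.56 ± 0.14, with an adjusted p of 0.0558 by edgeR's quasi-likelihood test, and between AON12.1 and scrambled it was -0.39 ± 0.14.

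Uchl5 and Psmd10 both had their lowest medians in AON12.1 libraries, with overlapping libraries in each. Both were singled out by a small p in AON12.1 against WT, so this follows in part from how they were chosen. Usp14 and Pomp also had their lowest medians in AON12.1 libraries, while Adrm1 and Sem1 did not. Adrm1, the 19S receptor that holds Uchl5, had medians of 44.5 CPM in WT, 46.1 in YAC128 aCSF, 45.7 in scrambled and 48.9 in AON12.1 libraries. Usp14, the other deubiquitinase of the 19S particle, had medians of 133 CPM in WT, 122 in YAC128 aCSF, 119.8 in scrambled and 111 in AON12.1 libraries. Sem1, a small lid subunit outside the symbol rule, had medians of 107 CPM in WT, 107 in YAC128 aCSF, 117 in scrambled and 108 in AON12.1 libraries, and Pomp, which matures the core, 227 CPM in WT, 209 in YAC128 aCSF, 221 in scrambled and 199.9 in AON12.1 libraries. Nfe2l1 had a log2 difference of -0.04 ± 0.10 between YAC128 aCSF and WT. On the no-feature share, Ube3a, the ubiquitin ligase of Angelman syndrome, rose by 0.24 per 10 percentage points on the log2 scale, and Ecpas, which tethers proteasomes, rose by 0.40. Akirin2, an import factor for proteasomes, fell by 0.23 and Vcp, the unfoldase upstream of the proteasome, fell by 0.15. These genes are named because they were called on the share. As 14.6% of all tested genes were called on it, their calls are not read as particular to this pathway.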

How the data were processed

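Each animal's striatal RNA (100 ng) was, per the labels' protocols, copied into cDNA with barcoded oligo-dT primers that carry molecular identifiers (modified mcSCRB-seq). The submitters' processing notes name FastQC, cutadapt 2.10, STAR 2.7.5a, HTSeq 0.12.4 and GRCm39. The deposited files hold raw counts per gene, 1 file per library. Collapse by molecular identifier and use of strand are not given in the sources used here.

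Gene names came from an annotation table (52081 of 55415 identifiers, with 99.8% of counts). Genes were filtered by group (minimum count 10, minimum total 15), leaving 10679, scaled by TMM and fitted over all 32 libraries with 1 mean per group (edgeR 4.0.16 in R 4.3.3, quasi-likelihood). p-values were adjusted by Benjamini-Hochberg over all tested genes and called under 0.05. Standard errors are the log2 difference divided by the square root of F, and 95% intervals use 28 degrees of freedom. The scripts were tested on simulated data. The common biological coefficient of variation was 16.7%. Rows for reads without a gene stayed out of library sizes, and the no-feature share is that row's percent of the file's total. Alternatives were DESeq2 1.42.0, limma voom 3.58.1, other filters, the no-feature share or number series as covariate, the 2 groups alone, each series alone and each library left out. Adding the counts of near-identical copies was chosen after seeing the data.

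The members and lists were chosen with earlier results of these data known. Named genes were members called in any fit, the 3 with the smallest p in each comparison, the protease pairs, the activators and the chaperones. The pathway genes were named where called, with Nfe2l1, Pomp, Usp14, Uchl5, Adrm1 and Sem1. Psmb1, Psmb4 and Psmd4 were added after their values were seen. Promoters on chromosome 18 were not used here.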

Additional observations from a re-analysis of the deposited data

Results flagged for a closer look

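In 13 of 116 groups of 8 libraries, the highest or lowest library lay farther from its neighbour than Dixon's limit allows. For independent values with a normal spread, chance gives this in about 1 in 20 groups. The CPM values were not transformed, and the 116 groups reuse the same 32 libraries, so the 13 are not read against that rate. Values are in CPM, with the nearest library after each.

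The lowest library stood apart in 3 groups. Psmd10 was 7.66 in scrambled replicate 2, with the next at 14.8. WT replicate 1, whose no-feature share was 30.2%, was low in Psmd5, at 16.5 against 30.8, and in the summed 20S core, at 1781 against 1914.

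The highest library stood apart in 10 groups. YAC128 aCSF replicate 5 was high in the base chaperones Psmd5, at 45.6 against 31.8, and Psmd9, at 53.2 against 35.8. Scrambled replicate 1 was high in Psmd2, at 151 against 119, in Psmg4, at 71.3 against 52.8, and in the summed assembly chaperones, at 215 against 178. Psmb10 was 71.6 in WT replicate 7, with the next at 56.5. Psmb5 was 38.1 in YAC128 aCSF replicate 7, with the next at 33.1. Psmd11 was 170.1 in YAC128 aCSF replicate 2, with the next at 129.5. Psme1 was 96.8 in scrambled replicate 3, with the next at 79.2. The summed 19S particle was 2257 in AON12.1 replicate 5, with the next at 2057.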

How the results depend on the processing

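No paired analysis was possible because the labels give animal numbers and no replicate numbers that groups share. The count of called members was 0 under every alternative in the comparisons of YAC128 aCSF with WT, AON12.1 with scrambled, scrambled with aCSF and scrambled with WT, and in the joint test of the 4 groups. With series 18 animals alone, 1 of 46 members was called between AON12.1 and aCSF, where 2.52% of all genes were. Between AON12.1 and WT, leaving out 1 library gave 0 to 1 calls. The 1 call was Psmd10, without AON12.1 replicate 1 or replicate 7. The share of all genes called in those fits is not given, so the call is not read as particular to members. When the fit included the no-feature share, the median log2 difference was -0.035 between YAC128 aCSF and WT and -0.058 between scrambled and aCSF. With series 18 alone it was -0.023 between AON12.1 and WT, and it changed sign to 0.075 between AON12.1 and scrambled, -0.029 between scrambled and aCSF and 0.0017 between AON12.1 and aCSF. These 3 medians also lay on both sides of 0 when 1 library was left out, from -0.026 to 0.024, from -0.024 to 0.021 and from -0.054 to 0.0069. The number of members called on the no-feature share was 2 with a minimum count of 30, 0 with series 18 alone, 0 with series 19 alone, and 1 to 6 when 1 library was left out. Of 32 such fits, Psme3 stayed called in 31, Psmb5 in 30, Psmd2 in 28, Psmd5 in 6 and Psmd8 in 5. Calls over all genes on the share in these alternatives are not given here. Of the named genes followed under the alternatives, 3 changed sign with series 18 alone: Psmd10 between AON12.1 and scrambled (0.27), Psmc3 between scrambled and aCSF (-0.030) and Psme3 on the no-feature share (0.0098). The cause of these changes was not tested. Genes with few counts, such as Psmb8, Psmb9 and Psme4, limit what can be read at this depth.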

Other observations

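The spread of proteasome genes between libraries of a group was near that of other genes at similar levels. The biological coefficient of variation, the spread beyond counting error, had a median of 12.2% over the 45 tested members, from 6.70% for Psmg2 to 20.1% for Psmg3. Over the 8571 other genes within the members' range of levels the median was 13.8%. Members shared variation unevenly. Over the 32 libraries, after group means were removed, Psmb5 had a Pearson r of 0.65 with the mean of the other 20S and 19S genes, Psmd8 0.61 and Psmb1 0.56. Psmc6, Psma3 and Psmd7 had r of -0.11, -0.29 and -0.35. The mean of the 32 tested 20S and 19S genes had r of -0.71 (Spearman's rho -0.70) with the no-feature share over the same 32 libraries. The libraries also differ in depth and in the no-feature share, and these values are a description with no p.

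The non-member genes most like that mean, by Pearson r over the 32 libraries after group means were removed, were Cisd1 (0.81), Atxn10 (0.77), Atp5a1 (0.77), Zfp428 (0.75) and Atp6v1f (0.74). Cisd1 encodes a protein of the outer mitochondrial membrane, Atp5a1 a subunit of the mitochondrial ATP synthase and Atp6v1f a subunit of the vacuolar proton pump. The mean itself was lower at a higher no-feature share, so their slopes on that share follow in part from how they were chosen and are not given as a result.

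The 50 members lie on many chromosomes. Chromosome 11 holds 10 of them, and chromosomes 2 and 14 hold 6 each.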
